A study of Mus musculus with 26 samples.

Results

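The segments described here are the variable (V) gene segments of the immunoglobulin heavy chain, taken as all genes whose name begins with Ighv in the deposited tables. There were 115 of them among 25814 genes. All lie on chromosome 12 between positions 113578504 and 116000461 of the mouse genome build GRCm38. Of these, 113 are on the minus strand and 2, Ighv5-8 and Ighv1-13, on the plus strand. The libraries were made from T cells sorted out of Peyer's patches, the lymphoid follicles of the small intestinal wall, in a study of how an elemental diet alters gene expression there. All mice were of the C57Bl/6 strain, with no allele or transgene named in the labels. There were 6 libraries of CD4+ T cells from mice on the elemental diet and 6 from mice on the conventional diet. A further 7 libraries of CD44+ T cells and 7 of CD44- T cells came from mice on the conventional diet. Input was 22 ng of RNA with poly(A) selection for the CD4+ libraries, and 1 ng with a low-input kit for the CD44+ and CD44- libraries. Kit and sorted population cannot be told apart, so elemental was compared only with conventional and CD44+ only with CD44-. No label ties replicates to separate animals or states a CD4 gate for the CD44 sorts, so p-values measure the spread between these samples, which may be technical.

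An antibody heavy chain is assembled in each developing B cell by joining 1 V segment to a diversity (D) and a joining (J) segment, upstream of the constant gene Ighm. The joined V segment is then transcribed with the constant gene, and a clone of B cells or plasma cells carries the same joined V segment in every cell. T cells rearrange their own receptor loci. In Peyer's patches the germinal centres and the plasma cells derived from them are known for antibodies of the IgA class, encoded by Igha.

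Each elemental CD4+ library held 18056167 to 23289722 total gene reads, each conventional one 17159084 to 26643133, each CD44+ one 9624785 to 12606633 and each CD44- one 10661694 to 14765572. The summed level of 14 alpha-beta T cell genes was 6231 to 7097 CPM (reads per 1000000 total gene reads) in elemental libraries and 6921 to 7810 CPM in conventional ones. It was 14563 to 16458 CPM in CD44+ libraries and 11859 to 18262 CPM in CD44- libraries. The summed level of 14 B cell genes was 280 to 609 CPM in elemental libraries, 509 to 924 CPM in conventional ones, 751 to 2125 CPM in CD44+ ones and 329.6 to 1171 CPM in CD44- ones. B cell genes were thus above 0 in every library, although the labels name T cells. In a bulk library, fewer cells of a type and less RNA per cell cannot be told apart.

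The last 200 coding bases of 6 segments are shown as examples from the diet comparison. They are credited to GENCODE M21 (GRCm38) and written 5′ to 3′ on the minus strand. Capitals mark a match to TANTANTGN within the last 30 bases, the stretch around the conserved cysteine codon next to which the D segment is joined. Of the 8 segments with the highest mean share, Ighv6-3 (ENSMUSG00000076677, chr12:114391712-114392169) and Ighv10-1 (ENSMUSG00000095981, chr12:114479005-114479451) had the smallest fitted changes between the diets. Ighv6-3 was still called lower, and Ighv10-1 varied widely between libraries. Ighv8-8 (ENSMUSG00000104452, chr12:115294062-115294504), Ighv3-6 (ENSMUSG00000076672, chr12:114288152-114288582), Ighv4-1 (ENSMUSG00000076655, chr12:113948282-113948796) and Ighv1-26 (ENSMUSG00000094546, chr12:114788372-114788805) were among those that fell.
Ighv6-3: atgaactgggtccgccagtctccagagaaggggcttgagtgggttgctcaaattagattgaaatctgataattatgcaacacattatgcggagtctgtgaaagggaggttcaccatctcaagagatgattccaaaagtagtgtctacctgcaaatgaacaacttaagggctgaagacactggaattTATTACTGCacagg
Ighv10-1: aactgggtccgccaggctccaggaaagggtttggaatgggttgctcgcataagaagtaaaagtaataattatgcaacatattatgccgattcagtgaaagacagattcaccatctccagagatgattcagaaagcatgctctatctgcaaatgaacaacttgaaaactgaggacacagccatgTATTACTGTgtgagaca
Ighv8-8: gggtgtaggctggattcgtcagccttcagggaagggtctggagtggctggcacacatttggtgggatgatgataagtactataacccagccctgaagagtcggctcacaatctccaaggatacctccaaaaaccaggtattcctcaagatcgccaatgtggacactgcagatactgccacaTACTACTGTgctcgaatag
Ighv3-6: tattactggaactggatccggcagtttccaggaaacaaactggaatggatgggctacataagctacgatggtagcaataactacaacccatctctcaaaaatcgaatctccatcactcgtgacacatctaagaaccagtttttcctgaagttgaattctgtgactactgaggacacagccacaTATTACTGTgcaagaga
Ighv4-1: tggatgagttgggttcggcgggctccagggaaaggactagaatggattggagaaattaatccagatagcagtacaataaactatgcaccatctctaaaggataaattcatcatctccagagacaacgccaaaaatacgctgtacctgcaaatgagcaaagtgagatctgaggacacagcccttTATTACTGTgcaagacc
Ighv1-26: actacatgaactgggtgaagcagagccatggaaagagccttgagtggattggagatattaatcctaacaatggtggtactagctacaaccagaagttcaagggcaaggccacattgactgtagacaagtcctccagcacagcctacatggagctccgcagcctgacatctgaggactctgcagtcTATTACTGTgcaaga

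On the sense strand, this motif was present in the last 30 coding bases of 86 of the 115 segments (74.8%). Among whole GENCODE M21 transcripts of at least that length, the last 30 bases held it in 771 of 141722 (0.544%). Those transcripts included the Ighv ones and were not cut to their coding part. The percentages therefore come from unlike stretches. A match is a description of the letters only. The segments resemble one another. Over the aligned coding sequence, each segment was a median of 95.1% identical to its nearest relative, with a range of 61.9% to 100%, and 59 of the 115 had a relative at 95% identity or more. Reads that matched more than 1 place were included in the total gene reads. The share of a segment's reads that matched a single place had a median of 82.0% for segments with such a relative and of 100% for the rest. For 20 segments that share was under 50%, and their levels are uncertain because the counting could give a read to either copy.

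A pair shown for this reason is Ighv1-62-3 (ENSMUSG00000096767, chr12:115460999-115461485) and Ighv1-72 (chr12:115757984-115758461), both on the minus strand. Their coding sequences of 351 bases are 99.1% identical. Counted from 1 at the start codon, with the base of Ighv1-62-3 first, they differ by T56C, A121T and C342T. Bases 50 to 345 are shown, with these 3 in capitals.
Ighv1-62-3: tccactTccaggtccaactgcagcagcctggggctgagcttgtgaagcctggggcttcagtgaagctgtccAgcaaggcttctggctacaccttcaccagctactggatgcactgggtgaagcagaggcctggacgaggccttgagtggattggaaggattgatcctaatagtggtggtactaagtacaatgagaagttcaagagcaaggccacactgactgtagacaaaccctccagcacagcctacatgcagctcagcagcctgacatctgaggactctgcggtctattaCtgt
Ighv1-72: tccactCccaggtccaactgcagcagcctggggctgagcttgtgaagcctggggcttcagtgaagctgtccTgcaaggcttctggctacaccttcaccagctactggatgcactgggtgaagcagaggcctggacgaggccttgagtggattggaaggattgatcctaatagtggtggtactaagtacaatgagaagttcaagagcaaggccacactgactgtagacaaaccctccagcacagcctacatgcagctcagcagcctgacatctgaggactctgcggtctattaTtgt

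Over all 26 libraries Ighv1-62-3 was listed with 644 reads, of which 1.24% matched only there, and Ighv1-72 with 0 reads. The identical pair Ighv1-62-2 and Ighv1-71 had 381 reads with 1.57% unique and 7 reads with 100% unique. Ighv1-50 had 980 reads with 11.1% unique, and its relative Ighv1-69, 97.2% identical, had 349 reads with 100% unique. In 25 of the 35 pairs of at least 95% identity in which both copies had reads, the copy at the lower coordinate had the lower unique share. Levels of Ighv1-62-3, Ighv1-62-2 and Ighv1-50 are therefore levels of a group of near-identical sequences. No read was listed for Ighv5-8, Ighv16-1, Ighv1-16, Ighv8-4 or Ighv1-72 in any library, so 110 segments had reads. The tables give an exon length of 0 to all segments but Ighv6-4 and Ighv6-5, so that only the total and the unique gene reads hold their signal.

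The first question was whether the elemental diet altered the level of these segments in the sorted CD4+ T cells. The summed Ighv level was 61.0, 34.2, 66.5, 35.8, 46.9 and 56.8 CPM in elemental replicates 1 to 6, against 189, 244, 111, 227, 248 and 122 CPM in conventional replicates 1 to 6. The highest elemental library lay below the lowest conventional one. The means were 50.2 ± 13.4 CPM in elemental libraries and 190.2 ± 60.9 CPM in conventional libraries (SD, n = 6 each), a ratio of 0.264. These levels rest on 681 to 1288 Ighv reads per elemental library and 1909 to 6051 per conventional library. Conventional replicates 3 and 6 were the lowest of their group.

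**Figure D1:**
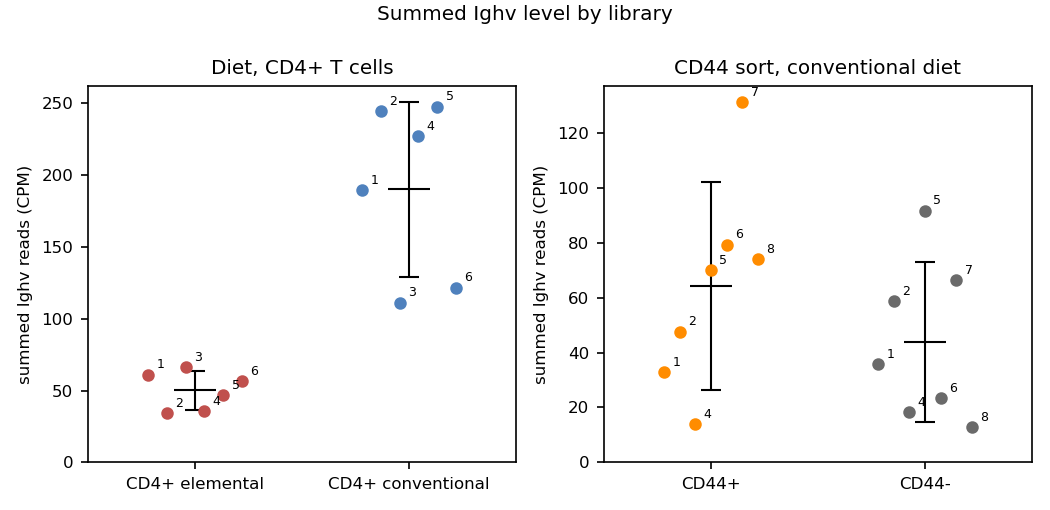
Summed Ighv level in CPM in each library (points, with replicate numbers), with the mean and SD of each group (bars), for elemental and conventional CD4+ T cells (left) and CD44+ and CD44- T cells (right). Elemental libraries sit between 34.2 and 66.5 CPM, all below the conventional ones at 111 to 248 CPM, while the CD44+ and CD44- libraries overlap.

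Segment by segment, 100 of the 115 had a lower mean CPM in elemental than in conventional libraries, 8 had a higher one, and 7 had no read in either group. In 13 segments every elemental library was below every conventional library, and in 0 the reverse held. For these counts over all 115 segments, no share over all genes was computed. edgeR's quasi-likelihood test, with Benjamini-Hochberg adjustment over all genes, was run on the 13088 genes that passed a filter on low counts, of which 7.96% were called lower and 10.0% higher at an adjusted p under 0.05. Of the 115 segments 50 passed this filter, many through the conventional libraries where they were high, and 27 of them were called lower and 0 higher. Without a filter, 108 segments were tested, 35 were called lower and 0 higher. Of the 19965 genes in that fit, 1070 were called lower and 1100 higher. Where at least 20 reads in at least 6 libraries were required, 29 segments were tested and 14 called lower, beside 987 of 12117 genes. In the 50 tested segments the log2 fold change of elemental over conventional ran from -4.47 to 0.03. Among those 50, 10 had no overlap between the groups in the falling direction, against 2.64% of all genes tested, and 0 in the rising direction, against 4.53%. Of the 58 segments with reads that were not tested, 51 had the lower mean in elemental libraries, and none had a mean above 0.475 CPM in elemental or 2.89 CPM in conventional libraries. A count of 0 reads in 1 of these libraries allows up to 0.113 to 0.175 CPM, counting error only.

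Among called segments averaging 1 or more in log2 CPM, the largest fall was that of Ighv7-1 (ENSMUSG00000076665). It had 0, 0.13 and 0.663 CPM (lowest, median and highest) in elemental libraries, against 0.525, 2.76 and 13.4 CPM in conventional libraries. The groups overlapped only in that the highest elemental library exceeded the lowest conventional one, and 3 of 6 elemental libraries had no read. Its log2 fold change was -4.47 ± 1.06 (SE, adjusted p = 0.014 by edgeR). Ighv8-8 followed, with 0.129, 0.338 and 0.853 CPM in elemental libraries, against 0.967, 5.62 and 12.3 CPM in conventional libraries, with no overlap. Its log2 fold change was -3.75 ± 0.63 (adjusted p = 0.0014). Ighv3-6 had 0.363, 0.744 and 1.51 CPM in elemental libraries, against 2.80, 7.24 and 12.3 CPM in conventional libraries. The groups again lay apart, and the log2 fold change was -3.07 ± 0.43 (adjusted p = 0.00036). Of the reads of Ighv7-1, Ighv8-8 and Ighv3-6, 100%, 98.2% and 100% matched a single place. Shared reads can be listed under a relative instead, so a high unique share does not show that a level is complete. Ighv8-5, 96.1% identical to Ighv8-8, had 442 reads with 51.6% unique. Ighv3-1, 91.7% identical to Ighv3-6, had 127 reads with 58.3% unique, while Ighv7-3, the nearest relative of Ighv7-1, had 100% unique.

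Ighv4-1, the sole member of its family, had 0.237, 0.848 and 2.35 CPM in elemental libraries, against 2.24, 4.67 and 19.9 CPM in conventional libraries. The overlap was confined to the highest elemental and the lowest conventional library, and conventional replicate 5 stood above the other 5. The log2 fold change was -2.78 ± 0.58 (adjusted p = 0.0058). Ighv1-82 (-2.77 ± 0.44) and Ighv1-55 (-2.70 ± 0.42) completed the 6 largest falls, each with no overlap between groups. Ighv1-26, 1 of the segments with the highest shares, had 0.386, 1.22 and 3.18 CPM in elemental libraries, against 4.49, 7.63 and 13.8 CPM in conventional libraries. These groups did not overlap either, and the log2 fold change was -2.40 ± 0.41 (adjusted p = 0.0014). Ighv1-18 (-2.25 ± 0.36), Ighv1-50 (-1.88 ± 0.51) and Ighv1-53 (-1.85 ± 0.36) also fell. Of Ighv1-18 reads 24.5% were unique and of Ighv1-53 reads 46.9%, so these levels are shared with relatives. With unique reads alone, Ighv1-53 still fell (-1.68, adjusted p = 0.017), while Ighv1-18 and Ighv1-50 were too low to be tested.

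Ighv6-3 fell least of the 27. It had 3.72, 5.01 and 6.78 CPM in elemental libraries, against 6.00, 8.47 and 12.4 CPM in conventional libraries. The groups overlapped, all 6 elemental libraries were below the conventional mean of 8.53 CPM, and the log2 fold change was -0.70 ± 0.21 (adjusted p = 0.033). That call was lost when conventional replicate 2, 3 or 5 was left out, or elemental replicate 1, 2, 4 or 5, with adjusted p between 0.050 and 0.086. It was also lost with the replicate number as a block (-0.68, adjusted p = 0.062). Ighv10-1 had 0.311, 1.51 and 7.77 CPM in elemental libraries, against 0.874, 2.47 and 4.46 CPM in conventional libraries. Its groups overlapped widely, and its log2 fold change of 0.03 ± 0.59 did not pass the test (adjusted p = 0.98). Elemental replicate 3 held the highest value, and without it the log2 fold change was -0.66. Ighv1-62-3 (-0.29 ± 0.57), Ighv1-54 (-1.33 ± 0.93) and Ighv2-9-1 (-1.83 ± 0.96), each the leading segment of 1 library, did not pass the test either. These values moved with single libraries. Without its leading library the log2 fold change was -0.77 for Ighv1-62-3 (elemental replicate 2), -0.41 for Ighv1-54 (conventional replicate 1) and -0.45 for Ighv2-9-1 (conventional replicate 3). Ighv1-62-3 ran up to -0.08, without elemental replicate 5.

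**Figure D2:**
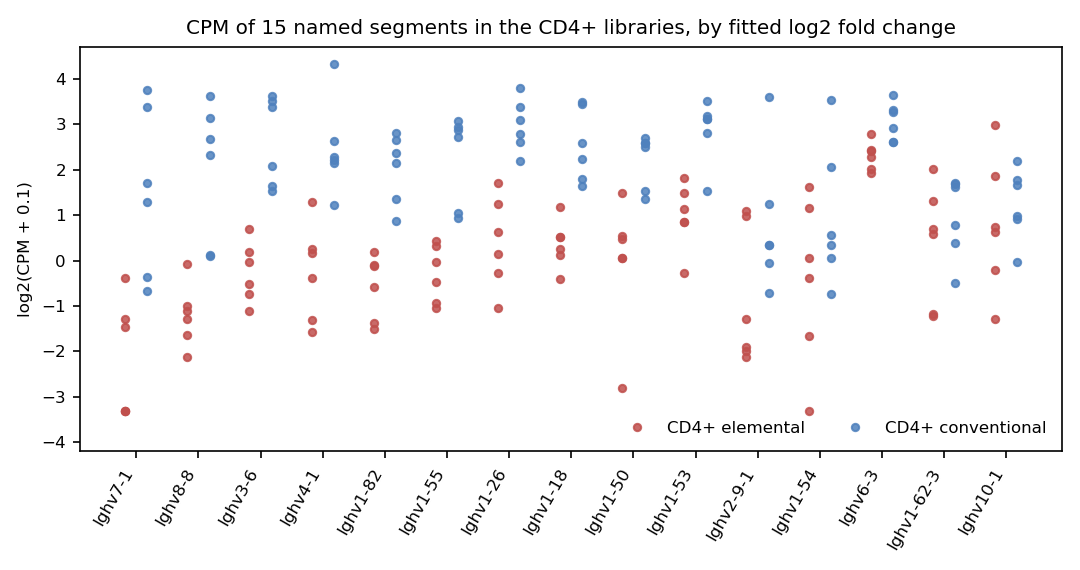
Level of the 15 named segments in each CD4+ library, as log2(CPM + 0.1), with elemental libraries (red) left of conventional libraries (blue) and segments ordered by fitted log2 fold change. From Ighv7-1 at -4.47 to Ighv10-1 at 0.03 the groups draw together, and Ighv6-3 keeps the narrowest spread at 3.72 to 6.78 CPM in elemental libraries.

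Along the locus the falls were spread over all stretches. Segments were placed in 5 bins of 23 by coordinate, from Ighv5-2, nearest the constant genes, to Ighv1-85, farthest from them. In order, 2 of 7, 6 of 9, 7 of 13, 7 of 10 and 5 of 11 tested segments were called lower, and 0 were called higher in any bin. The share of Ighv reads from the bin nearest the constant genes was 12.4% ± 5.02 in elemental and 15.5% ± 4.50 in conventional libraries (SD, n = 6 each). The share from the farthest bin was 19.8% ± 4.56 in elemental and 17.9% ± 2.69 in conventional libraries. In each bin the range of one group overlapped that of the other.

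**Figure D3:**
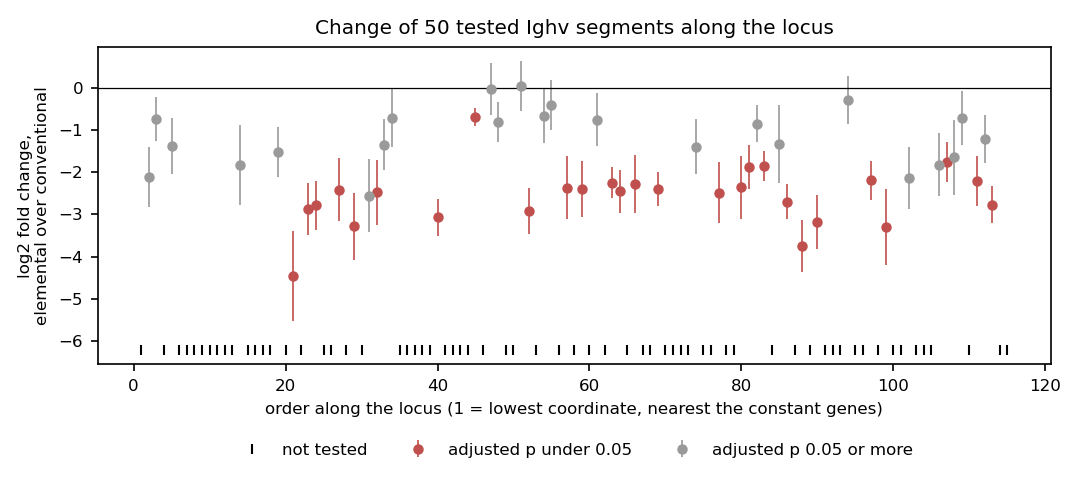
Log2 fold change (elemental over conventional) with its SE for the 50 tested segments in their order along the locus; red points have an adjusted p under 0.05 and ticks mark segments that were not tested. The 27 called segments lie below 0 throughout the locus.

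Shares describe the makeup of the Ighv reads apart from their amount. By mean share over the 12 CD4+ libraries, Ighv6-3 ranked first, and it ranked first again when shares were divided by gene length. Its share was 8.62%, 10.2% and 11.0% (lowest, median and highest) in elemental libraries, against 3.18%, 4.46% and 8.54% in conventional libraries. This was the only segment of the 115 whose shares did not overlap with the elemental libraries higher, and 0 segments did so with the elemental libraries lower. The gap between the lowest elemental and the highest conventional library was small, 8.62% against 8.54%, the second of these in conventional replicate 3. Ighv6-3 led in elemental replicates 1, 4, 5 and 6, with a 95% exact binomial interval of 7.14% to 10.3% in the lowest of these. Ighv1-62-3 led with 11.6% in elemental replicate 2 and Ighv10-1 with 11.7% in elemental replicate 3. In conventional libraries the leading segments were Ighv1-54 (6.09%), Ighv1-26 (5.64%), Ighv2-9-1 (10.8%), Ighv1-53 (5.02%), Ighv4-1 (8.05%) and Ighv1-53 (7.12%) in replicates 1 to 6.

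By family, taken as the number after Ighv, the 54 Ighv1 segments held 49.5% ± 6.26 of Ighv reads in elemental and 52.0% ± 4.22 in conventional libraries. The 5 Ighv6 segments held 14.5% ± 1.58 in elemental and 7.06% ± 3.72 in conventional libraries, with ranges of 12.5% to 16.8% in elemental and 3.85% to 14.2% in conventional libraries. The 2 Ighv10 segments held 7.17% ± 5.10 in elemental and 2.39% ± 1.41 in conventional libraries, with 1.82% to 15.9% in elemental and 1.03% to 4.24% in conventional libraries. Ighv3 segments held 2.74% ± 0.59 in elemental and 4.67% ± 1.41 in conventional libraries, and Ighv14 segments 3.13% ± 1.48 in elemental and 5.32% ± 2.32 in conventional libraries. Ranges of these families overlapped between the diets. Called falls came to 17 of 27 tested Ighv1 segments, 3 of 3 Ighv14, 2 of 3 Ighv8, 1 of 3 Ighv6, 0 of 3 Ighv5 and 0 of 2 Ighv10.

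An effective number of segments, the exponential of the Shannon entropy of the shares, was computed after thinning each library to 681 Ighv reads. It was 34.3, 41.4 and 47.4 (lowest, median and highest) in elemental libraries, against 40.6, 47.3 and 53.1 in conventional libraries, which overlapped. At least 1 read was seen for 62 to 81 segments per elemental library and 80 to 97 per conventional library before thinning. Of all segments, 38 had reads in each of the 12 libraries. The overlap of 2 libraries, the sum over segments of the smaller share at that depth, had a median of 56.2% (50.6% to 60.5%) among pairs of elemental libraries. It was 60.1% (50.7% to 66.8%) among pairs of conventional libraries. Between an elemental and a conventional library it was 53.2% (49.5% to 57.4%) in the 6 pairs of the same number and 53.5% (47.2% to 57.8%) in the 30 pairs of other numbers.

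Other genes of the heavy chain, from a list of constant genes, were set beside the segments. Of 7 tested constant genes 6 fell. Igha was 43.5, 121 and 144 CPM in elemental libraries, against 281, 533 and 651 CPM in conventional libraries, with no overlap (log2 fold change -2.05 ± 0.32, adjusted p = 0.0018). Ighg2b, an IgG class gene, fell further, with 2.19, 3.81 and 7.48 CPM in elemental libraries, against 27.1, 75.1 and 115 CPM in conventional libraries (-3.95 ± 0.45, adjusted p = 0.00034). Ighm fell by less, with 311, 368 and 500 CPM (lowest, median and highest) in elemental libraries, against 383, 555 and 594 CPM in conventional libraries (-0.33 ± 0.10, adjusted p = 0.034). Ighd, at -0.24 ± 0.23, did not pass (adjusted p = 0.49). Summed Ighv reads per 100 Ighm reads were 8.32 to 17.7 in elemental libraries, against 26.1 to 41.7 in conventional libraries, without overlap. Per 100 reads of all listed constant genes, they were 6.95 to 12.1 in elemental libraries, against 14.3 to 16.9 in conventional libraries.

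Marker lists, among them those of cells that carry joined V segments, were set beside these levels, and their part in the Ighv result was not tested. Which cells the RNA of a listed gene came from, the sorted T cells or others, was not tested either. Of 8 tested germinal centre B cell genes 8 fell, with a summed level of 76.3 to 97.4 CPM in elemental libraries, against 152 to 267 CPM in conventional libraries. Of 10 plasma cell genes 4 fell, among them Jchain, the chain that joins IgA and IgM into polymers (-1.44 ± 0.33), and Mzb1, a chaperone of antibody assembly (-1.47 ± 0.25). The summed level of the 10 was 498 to 930.5 CPM in elemental libraries, against 1159 to 2179 CPM in conventional libraries. Jchain alone was at 195 to 627 CPM in elemental libraries, against 822 to 1736 CPM in conventional libraries. Of 14 B cell genes 2 fell, and the summed levels overlapped. Of 14 alpha-beta T cell genes 6 fell, with Cd3e at -0.25 ± 0.08. All 10 tested myeloid genes rose, with a summed level of 749 to 1617 CPM in elemental libraries, against 496 to 603 CPM in conventional libraries. Of 10 epithelial genes 4 rose, with sums of 476 to 1243 CPM in elemental and 69.0 to 726 CPM in conventional libraries. Of the recombination genes, Dntt, the polymerase that adds bases at V(D)J joins, rose, with 6.54, 10.3 and 11.4 CPM in elemental libraries, against 3.05, 3.79 and 6.49 CPM in conventional libraries (1.28 ± 0.21, adjusted p = 0.0011). Rag1 (0.85 ± 1.02) did not pass, and Rag2 was too low to be tested.

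The second comparison asked how the segments differed between CD44+ and CD44- T cells, CD44 being an adhesion receptor that is high on antigen-experienced T cells. The summed Ighv level was 13.9, 70.1 and 131 CPM (lowest, median and highest) in CD44+ libraries, against 12.9, 35.9 and 91.7 CPM in CD44- libraries. The groups overlapped over nearly their whole ranges, with means of 64.1 ± 37.9 CPM in CD44+ and 43.9 ± 29.2 CPM in CD44- libraries (SD, n = 7 each). These rest on 154 to 1408 Ighv reads per CD44+ library and 138 to 1303 per CD44- library.

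No segment was seen in all CD44+ and CD44- libraries. Of the 115 segments 83 had a read in any of the 14 libraries, 23 of these in 1 library only, and 0 in every library. Of 10976 genes tested by edgeR 0.920% were called, 49 higher and 52 lower. Only Ighv1-50 passed the filter on low counts, and it was not called (log2 fold change 0.21 ± 1.04, adjusted p = 0.97 by edgeR). Its log2 fold change was 1.33 (adjusted p = 0.63) with the replicate number as a block and 1.24 (adjusted p = 0.74) without CD44- replicate 5, and near 0 or below without any 1 of CD44+ replicates 1 and 7 and CD44- replicates 4, 6, 7 and 8 (-0.03 to 0.03). Without the filter, 83 segments were tested and 0 were called by edgeR, while at an unadjusted p under 0.05 there were 10 higher and 16 lower (31.3% of these segments, against 15.0% of the 19864 genes in that fit). That fit included the 23 segments with reads in 1 library only, so this percentage does not measure a difference between the groups. DESeq2 gave Ighv1-50 no adjusted p, so it made 0 calls too. No segment separated the groups without overlap, which 0.337% of the tested genes did in the lower and 0.747% in the higher direction. A count of 0 allows up to 0.203 to 0.312 CPM per library, counting error only.

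No single segment led all libraries of either group. Ighv4-1 led in CD44+ replicates 4, 5 and 6, with 46.8%, 21.3% and 18.9% of Ighv reads. It had no read in CD44+ replicates 1, 2, 7 and 8. Among CD44- libraries it led in replicate 4 with 17.9% and held 13.5% in replicate 5 and 1.61% in replicate 2, with no read in the other 4. Ighv5-4 (ENSMUSG00000095612) led in CD44+ replicates 2 and 8 with 20.5% and 26.3%, and held 24.4% in replicate 1. In CD44- libraries its share was at most 0.498%, and 5 of 7 had no read. Its level was 0, 1.81 and 19.4 CPM (lowest, median and highest) in CD44+ libraries, against 0, 0 and 0.0905 CPM in CD44- libraries, so that the CD44+ libraries without it overlapped the CD44- ones. Of all Ighv5-4 reads in the 26 libraries 67.2% were unique, and Ighv5-6 is 95.5% identical to it, so its level may be shared with relatives. Ighv1-62-3 led in CD44+ replicate 1 with 24.7% and Ighv1-26 in CD44+ replicate 7 with 22.2%. In CD44+ replicate 1, 30.4% of Ighv reads were unique, against 69.8% to 91.3% in the other CD44+ libraries. Ighv1-62-2 held 18.4% there. Over all libraries 1.24% of Ighv1-62-3 reads and 1.57% of Ighv1-62-2 reads were unique. The makeup of that library thus depends on how reads were given to like copies.

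In CD44- libraries, Ighv9-3 led in replicate 1 with 23.4% and in replicate 5 with 15.7%, and Ighv8-5 in replicate 2 with 21.2%. Ighv1-47 held 53.6% of 276 reads in CD44- replicate 6 (95% exact binomial interval 47.5% to 59.6%) and had no read in the other 6 CD44- libraries. Ighv1-15 held 41.0% in CD44- replicate 7 and Ighv2-4 held 46.4% of 138 reads in CD44- replicate 8. Neither had a read in any other CD44- library or in any CD44+ library. Over all 26 libraries, 74.4% of Ighv1-15 reads and 57.4% of Ighv2-4 reads were unique. Ighv2-2, 97.7% identical to Ighv2-4, held 14.5% in CD44- replicate 8 and 6.23% in CD44- replicate 2. The limit of Ighv2-4 to 1 library therefore depends on how reads were given to these copies. Ighv1-53 was the only segment with reads in all 7 CD44+ libraries, with shares of 0.114%, 6.17% and 18.3% (lowest, median and highest). It had reads in 3 of 7 CD44- libraries, with a highest share of 6.75%. Ighv6-3, first in the CD4+ libraries, held 15.2% in CD44+ replicate 6 and no read in 4 of the 7 CD44+ libraries. It held up to 12.1% in CD44- libraries, in which 3 of 7 had no read.

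**Figure D4:**
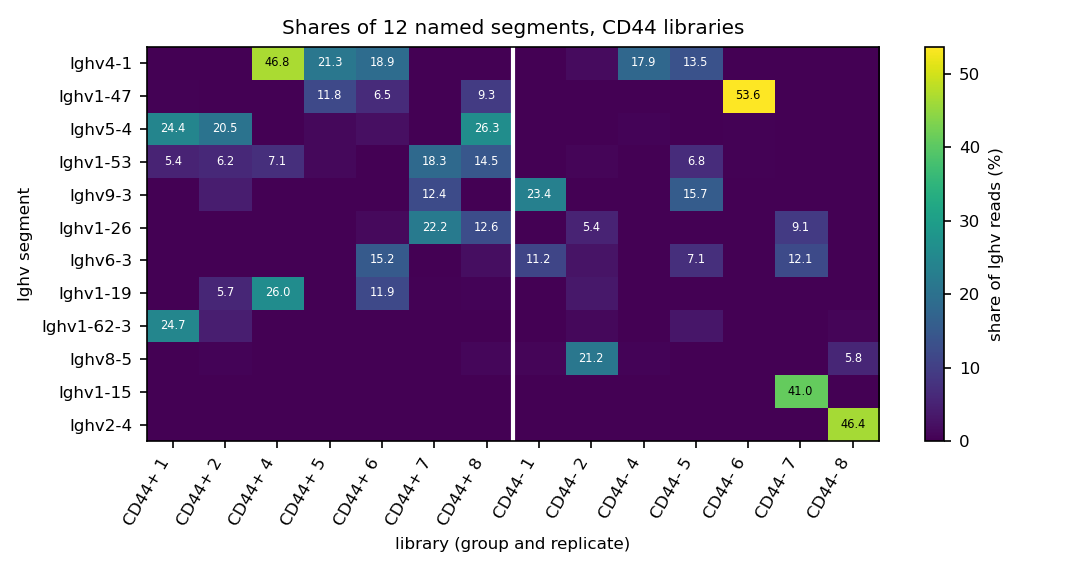
Share of Ighv reads (colour and, from 5% up, printed values) of the 12 named segments in the 7 CD44+ libraries (left of the white line) and the 7 CD44- libraries (right). No single segment leads all libraries of a group, and shares reach 46.8% for Ighv4-1 in CD44+ replicate 4 and 53.6% for Ighv1-47 in CD44- replicate 6.

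Together, the 3 leading segments held 40.3%, 53.4% and 79.9% of Ighv reads (lowest, median and highest) in CD44+ libraries, against 34.7%, 49.8% and 93.5% in CD44- libraries. A share of 5% or more in at least 1 CD44+ or CD44- library was reached by 45 segments, 28 of them in 1 library only. Thinned to 138 reads, the effective number of segments was 4.84, 9.25 and 14.0 in CD44+ libraries, against 3.33, 8.40 and 18.0 in CD44- libraries, which overlapped. At the same depth, 2 CD44+ libraries shared a median of 13.4% (4.89% to 41.3%) of their Ighv reads by segment. Pairs of CD44- libraries shared a median of 2.46% (0% to 31.7%). A CD44+ and a CD44- library shared a median of 12.3% (0.833% to 29.6%) in the 7 pairs of the same number and of 11.0% (0% to 34.8%) in the 42 pairs of other numbers. CD44- replicate 8 had reads from only 5 segments.

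Heavy and light chain variable reads did not keep the same ratio in the CD44 sort. Summed reads of kappa variable (Igkv) genes were 3117 to 6979 CPM in CD44+ libraries, against 369 to 2942 CPM in CD44- libraries, with no overlap. Divided by the summed Ighv level, this gave 42.7, 89.8 and 224 Igkv reads per Ighv read (lowest, median and highest) in CD44+ libraries, against 9.18, 22.2 and 32.1 in CD44- libraries, again with no overlap. CD44+ replicate 4, at 224, had the lowest Ighv level of its group, and without it the range in CD44+ libraries was 42.7 to 105. In the diet comparison the ratio was 7.37, 10.4 and 12.3 in elemental libraries, against 5.96, 8.48 and 10.7 in conventional libraries, which overlapped. Igkc, the kappa constant gene, was higher in CD44+ libraries (log2 fold change 2.16 ± 0.43, adjusted p = 0.025 by edgeR), as were Jchain (2.25 ± 0.47, adjusted p = 0.032) and Mzb1 (2.53 ± 0.46, adjusted p = 0.016). The heavy chain constant genes Ighm (-0.49 ± 0.36), Igha (0.59 ± 0.65) and Ighg2b (-0.20 ± 1.57) did not pass the test. Of 8 tested plasma cell genes 2 were called higher, these same Jchain and Mzb1. The summed level of 10 plasma cell genes was 2855 to 6418 CPM in CD44+ libraries, against 347 to 2018 CPM in CD44- libraries. Jchain alone was at 2426 to 5822 CPM in CD44+ libraries, against 107 to 1886 CPM in CD44- libraries. The sum is thus largely the level of Jchain, and its part in the ratio was not tested.

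**Figure D5:**
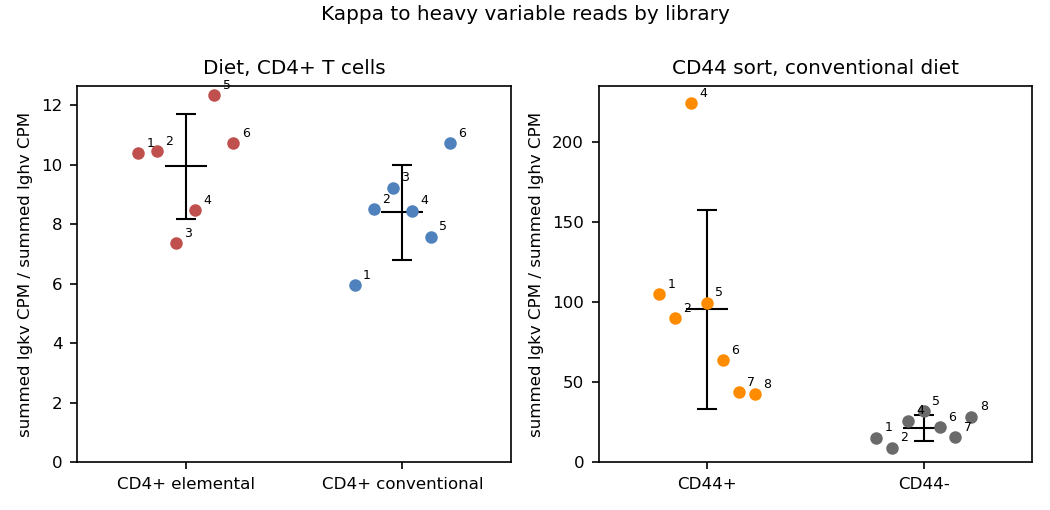
Summed Igkv CPM divided by summed Ighv CPM in each library (points, with replicate numbers), with the mean and SD of each group (bars). The diets overlap at 7.37 to 12.3 (elemental) and 5.96 to 10.7 (conventional), while CD44+ libraries, at 42.7 to 224, all lie above CD44- libraries, at 9.18 to 32.1.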

How the data were processed

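RNA was sequenced from 26 libraries in 4 groups, as named in the labels. The authors deposited, for each library, whole-number read counts per gene as total, unique, exon and intron reads, with the genome build GRCm38 per the submitters' processing notes. No source used here names the aligner, its settings or the use of strand. Total gene reads were used as the counts, and CPM is reads per 1000000 total gene reads of that library.

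Each pair of groups was fitted on its own with edgeR 4.0.16 in R 4.3.3 (filterByExpr, TMM, robust quasi-likelihood, two-sided, called at an adjusted p under 0.05 over all genes), checked on simulated counts. The simulation gave every gene the same spread setting, so it does not show how the test does on genes that vary more between libraries. DESeq2 1.42.0 was an alternative, beside unique and exon reads, other scalings and filters, a replicate block and leaving out libraries. Named segments were the 8 with the highest mean share, the 6 with the largest fall and the 6 with the largest rise among those called and averaging 1 or more in log2 CPM (0 rises passed), and each library's leading segment. Members and gene lists were chosen with earlier results of these data known. Sums and shares over segments carry no p-value. Replicates differed beyond sampling noise, with chi-square over its degrees of freedom of at least 14.2. Intervals and limits cover counting error only.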

Additional observations from a re-analysis of the deposited data

Results flagged for a closer look

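A library was singled out where the gap between its value and the nearest other value of its group was large for the whole range of the group (Dixon's criterion at the 95% level). This gave 19 values in 74 series of values looked at. Chance alone picks about 1 in 20 series that were chosen without regard to their values. Many segments here were named because they led a library, so that rate does not hold for them and the number of such values shows nothing by itself. They comprise 8 in CD44+ libraries, 8 in CD44- libraries, 0 in elemental and 3 in conventional libraries, all at the high end.

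Among conventional libraries, Ighv4-1 was at 19.9 CPM in replicate 5 (next 6.07), Ighv1-54 at 11.5 CPM in replicate 1 (next 4.11) and Ighv2-9-1 at 12.0 CPM in replicate 3 (next 2.26).

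In CD44+ replicate 4 the leading segment held 46.8% of Ighv reads (next 26.3%), and there were 224 Igkv reads per Ighv read (next 105). CD44+ replicate 7 stood out with Ighv9-3 at 16.2 CPM and Ighv1-26 at 29.0 CPM. CD44+ replicate 6 stood out with Ighv6-3 at 12.1 CPM and Ighv1-19 at 9.43 CPM. Ighv1-62-3 was at 8.11 CPM in CD44+ replicate 1, and Ighv8-5 at 0.623 CPM in CD44+ replicate 8.

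Among CD44- libraries, replicate 5 stood out with Ighv4-1 at 12.4 CPM, Ighv1-53 at 6.19 CPM and Ighv1-62-3 at 3.03 CPM. Replicate 2 stood out with Ighv8-5 at 12.5 CPM and Ighv1-19 at 2.03 CPM. Ighv1-47 was at 12.5 CPM in replicate 6, Ighv1-15 at 27.3 CPM in replicate 7 and Ighv2-4 at 6.00 CPM in replicate 8, each with 0 in all other CD44- libraries.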

How the results depend on the processing

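The 27 segments called lower stood beside 1042 of 13088 genes called lower. With unique reads these were 20 of 36 tested segments, beside 1047 of 12512 genes. Plain library sums gave 30 segments (1155 of 13088 genes) and DESeq2 gave 31 (1415 of 13088). No filter gave 35 (1070 of 19965), and scaling that left out immunoglobulin genes gave 27 (1073 of 13088). Leaving out conventional replicate 6 and elemental replicate 1 at once gave 30 (1662 of 13103). That choice of 2 libraries was made after seeing the data. At least 20 reads in at least 6 libraries left 29 segments tested and 14 called lower (987 of 12117 genes). Exon reads left 1 segment tested and 0 called, since nearly all segments have an exon length of 0. Leaving out 1 library gave 21 to 29 calls, while those over all genes ran from 1584 (without conventional replicate 4) to 3871 (without conventional replicate 6). No rise of a segment was called in any of these settings. Summed exon CPM averaged 0.623 in elemental, 0.687 in conventional, 0.0705 in CD44+ and 0.958 in CD44- libraries. With unique reads and no thinning, the effective number of segments averaged 37.0 in elemental and 44.1 in conventional libraries. The unthinned means with total reads were 41.1 in elemental and 49.8 in conventional libraries. The conventional mean thus moved by more than the SD of its group, 4.53.

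With the replicate number as a block, 23 segments were called lower, beside 962 of 13088 genes. Same-numbered libraries correlated between -0.49 and 0.69 across the diets and between -0.18 and 0.24 across the CD44 sort, and only elemental replicate 6 and CD44+ replicates 2 and 5 correlated best with the library of their own number in the other group. Both CD44 groups carry the numbers 1, 2 and 4 to 8. Since not every same-numbered pair correlated, the numbers were not taken as pairs, which does not show that the samples are unpaired. Under the block Ighv6-3 was at -0.68 (adjusted p = 0.062) and Ighv10-1 turned to -0.44. The sign of Ighv10-1 also turned with plain library sums (-0.0074) and on leaving out conventional replicate 1 (-0.07), conventional 2 (-0.06), conventional 3 (-0.14), elemental 3 (-0.66) or elemental 5 (-0.11); its leave-one-out range was -0.66 to 0.25. The cause was not tested. In the CD44 sort 0 segments were called, with 1 to 5 tested when a library was left out, 83 tested without a filter and 0 tested with unique reads, exon reads or the stricter filter, where no call was possible. There, plain library sums moved the median log2 fold change of all genes to 0.12.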
